A study of Mus musculus with 19 samples.

Results

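Complement C1ra, C1s1, C2, C4b, C7, Cfb, Cfd, Cd55 and Serping1 were followed across 19 libraries of mouse endometrial RNA. The 9 genes were chosen by name as a set of complement components and regulators and were matched by symbol to the 49089 genes of the deposited counts. Of these 9 genes, 7 had a CPM value (counts scaled to library size) of at least 3 in at least 3 libraries and were among the 17222 genes tested. C7 and Cfd did not reach this minimum, and their levels are described without a test.

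Complement is a set of plasma and membrane proteins that act in a cascade of proteases on pathogens, immune complexes and dying cells. In the classical pathway, C1q binds a target, and its associated proteases C1r and C1s cleave C4 and C2 to form an enzyme that splits C3. In the alternative pathway, factor B (Cfb), cleaved by factor D (Cfd), forms the enzyme that splits C3, and the terminal components, C7 among them, assemble into a pore in the target membrane. Serping1 encodes the C1 inhibitor, which inactivates C1r and C1s, and Cd55 encodes decay-accelerating factor, a membrane protein that takes the C3-splitting enzymes apart on the body's own cells. In the rodent uterus, complement component C3 is a classical estrogen-responsive secretory product of the epithelium.

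The endometrium was scraped from the uterus of C57Bl/6 females of WT genotype, and samples were pooled before sequencing. The group CONT (3 libraries, numbered 1, 2 and 4) came from untreated, unmated females in estrus, collected around ovulation. INT (4 libraries) came from females mated with intact Balb/c males and collected on day 3.5 post coitum (pc). SVX, SVX_VAS and VAS (4 libraries each) came from females collected on the same day after mating with surgically modified Balb/c males. Mated females were between 8 and 14 weeks old, and the age of CONT females was not given in the sources used here. For SVX, SVX_VAS and VAS the sample titles and the library names disagree on the surgery of the males. These sets are therefore called by the prefix of their library names, and no surgery is assigned to them. Mated and CONT females differed in mating, in cycle stage and in the time of day of collection, and these cannot be told apart here. Nothing in the labels says how many animals a pool held, so that p-values measure the spread between pools. In bulk tissue, fewer cells of a type and less RNA per cell cannot be told apart.

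The libraries held between 12661266 and 31781270 counts on genes, so that 3 counts, the limit that a count of 0 allows, corresponded to between 0.108 and 0.236 CPM (counting error only). VAS libraries 2 and 3 stood apart from the other 17. Their 10 most abundant genes held between 1.07% and 1.11% of the counts, against 3.74% to 5.81% elsewhere. Scaled by library totals alone, their Malat1 levels were between 703 and 723 CPM, against 7243 to 14114 CPM. For the 7 tested members, the difference of VAS from CONT is therefore also given without these 2 libraries. The defining genes of the endometrium were present in every library, with Epcam, an epithelial adhesion protein, between 64.8 and 679 CPM, and Pdgfra, a stromal growth factor receptor, between 170.5 and 783 CPM.

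A gene was called higher or lower when its false discovery rate-adjusted p-value (FDR, edgeR quasi-likelihood test, Benjamini-Hochberg) was 0.05 or less and its log2 fold-change (logFC) corresponded to at least 1.5-fold in either direction. Against CONT, 4 of the 7 tested genes were called in INT (C1ra, C1s1 and Serping1 higher, Cd55 lower). Of all genes tested, 20.9% were called higher and 12.7% lower in INT. In SVX, 6 of the 7 were called, with C2 and Cfb lower besides these 4, where 23.1% of all genes were higher and 18.5% lower. In SVX_VAS the same 4 genes as in INT were called, beside 22.2% of all genes higher and 16.5% lower. In VAS, 3 were called (C1ra and C1s1 higher, Cd55 lower), beside 23.3% higher and 17.3% lower. The 4 comparisons share the 3 CONT libraries. Since between 33.6% and 41.6% of all genes were called in these comparisons, the counts alone set the complement genes apart little, and the values of each gene follow.

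**Figure D1:**
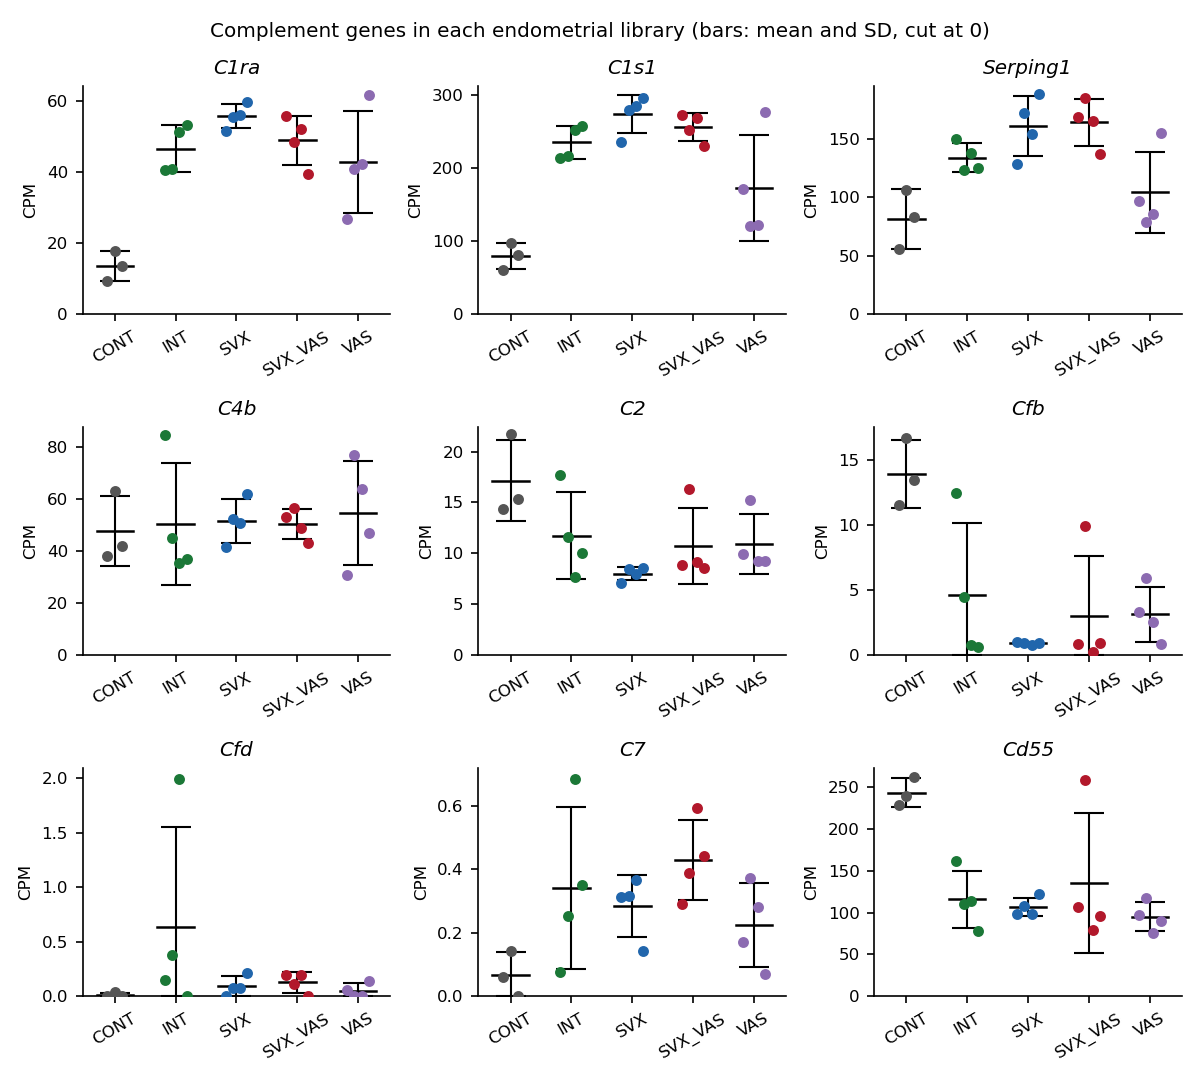
Level of each of the 9 complement genes in every library, in CPM scaled with TMM factors (each panel has its own linear axis from 0). Points are libraries, horizontal lines are group means and bars are 1 SD (cut at 0). C1ra and C1s1 libraries of every mated set lie above all CONT libraries, Cfb and Cd55 are high in CONT, and Cfd and C7 lie near 0.

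C1ra and C1s1, the proteases of the C1 complex, rose together in all 4 mated sets. C1ra (ENSMUSG00000055172.10, chr6:124512405-124523443, + strand) and C1s1 (ENSMUSG00000038521.17, chr6:124530345-124542359, - strand) lie side by side on GRCm38 and are transcribed toward each other. In CONT libraries 1, 2 and 4, C1ra was at 9.33, 17.7 and 13.6 CPM. INT libraries 1 to 4 held 40.6, 40.9, 51.3 and 53.1 CPM, and SVX libraries 1 to 4 held 51.5, 55.5, 55.9 and 59.6 CPM. Every INT and SVX library was thus above the highest CONT library. SVX_VAS libraries 1 to 4 held 55.7, 48.3, 51.9 and 39.5 CPM, and VAS libraries 1 to 4 held 26.8, 40.9, 42.1 and 61.5 CPM. VAS 1 was the lowest of the 16 mated libraries and VAS 4 the highest, and none overlapped CONT. The fold-change over CONT was 3.42 in INT (logFC 1.77 ± 0.24 SE, FDR = 3.2e-05), 4.09 in SVX (logFC 2.03 ± 0.25, FDR = 6.48e-06), 3.59 in SVX_VAS (logFC 1.85 ± 0.24, FDR = 1.79e-05) and 3.15 in VAS (logFC 1.65 ± 0.24, FDR = 3.95e-05). Without VAS 2 and VAS 3 the VAS difference was 1.69 (FDR = 0.000356).

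C1s1 was the more abundant of the pair per kilobase (a mean level of 25.4 against 4.54 CPM per kb in CONT). It measured 60.7, 96.9 and 80.7 CPM in CONT libraries 1, 2 and 4. The INT libraries held 214, 217, 251 and 258 CPM, and the SVX libraries held 236, 279, 285 and 296 CPM. Both sets were above every CONT library and overlapped each other. The SVX_VAS libraries held 272, 253, 268 and 230.1 CPM, while the VAS libraries held 171, 121, 122 and 276 CPM. VAS 2 and VAS 3, the libraries that stood apart, were the lowest of the mated libraries, and VAS 4 lay within the range of SVX. The logFC over CONT was 1.56 ± 0.24 in INT (fold-change 2.96, FDR = 8.16e-05), 1.79 ± 0.24 in SVX (3.45, FDR = 1.68e-05), 1.69 ± 0.24 in SVX_VAS (3.22, FDR = 3.48e-05) and 1.12 ± 0.24 in VAS (2.17, FDR = 0.000852). Without VAS 2 and VAS 3 it was 1.49 in VAS (FDR = 5.92e-05). C1s1 shares 18.4% of its counted bases with an antisense gene, Gm16567, and the strand setting of the counting is not given in the sources used here. The near-identical copies C1rb and C1s2 were low, with at most 0.467 and 0.988 CPM in the mated libraries, although reads shared by the copies may have been left out of either count.

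Serping1, the inhibitor of these proteases (ENSMUSG00000023224.12, chr2:84765387-84775444, - strand), rose less. CONT libraries 1, 2 and 4 held 55.3, 106 and 83.0 CPM. The INT libraries held 149.6, 124, 138 and 125 CPM, and the SVX libraries held 128, 172, 154 and 188 CPM. The SVX_VAS libraries held 169, 185, 165 and 137 CPM, so that no library of these 3 mated sets overlapped CONT. In VAS, libraries 1, 2 and 3 held 97.0, 78.5 and 85.8 CPM, within the CONT range, and library 4 held 155 CPM. The logFC was 0.72 ± 0.23 in INT (FDR = 0.0173), 0.98 ± 0.23 in SVX (FDR = 0.00188) and 1.01 ± 0.23 in SVX_VAS (FDR = 0.00172), and it was 0.35 ± 0.23 in VAS, which was not called (FDR = 0.201). Without VAS 2 and VAS 3 the VAS value was 0.63 and was called (FDR = 0.0416). Without CONT 1, the lowest library, the INT value was 0.50 and was not called (FDR = 0.106). The INT call was also lost with glmTreat, which tests against the fold cutoff itself (FDR = 0.363).

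**Figure D2:**
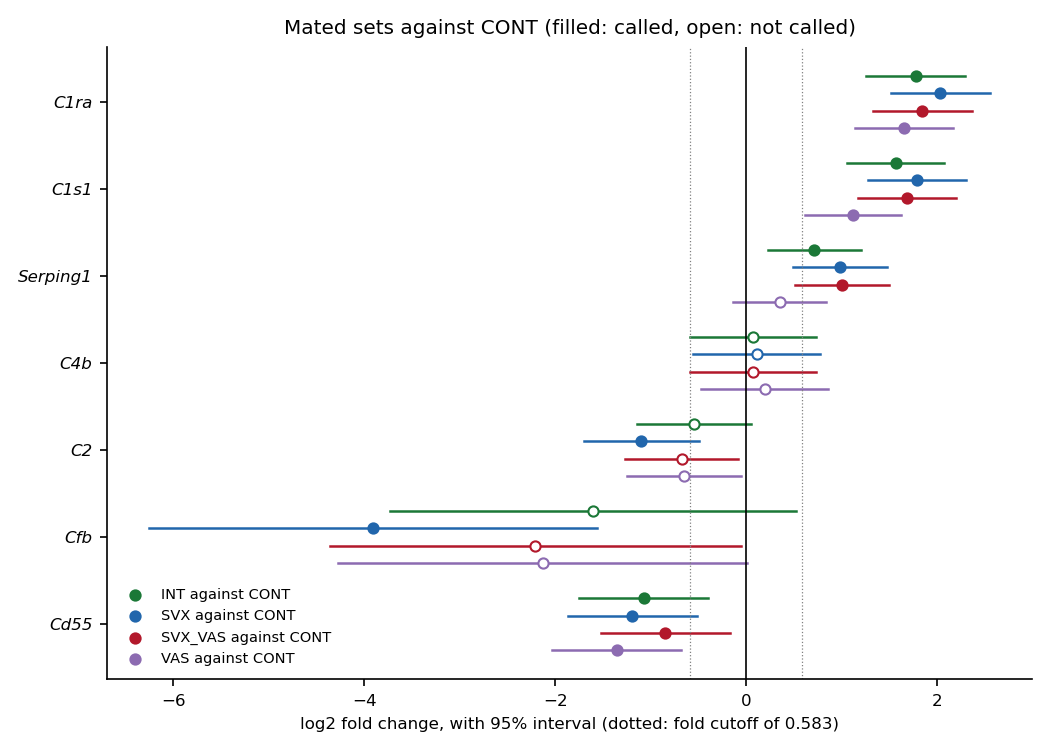
Log2 fold-change of the 7 tested complement genes in each mated set against CONT, with 95% intervals from the edgeR fit. Filled points were called and open points were not, and dotted lines mark the 1.5-fold cutoff. C1ra, C1s1 and Cd55 were called in all 4 sets, while the intervals of Cfb are several times wider than those of the other genes.

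Of the components that C1s cleaves, C4b was not called in any mated set and C2 was called lower in SVX. C4b (ENSMUSG00000073418.4, chr17:34728380-34743882, - strand) was at 37.9, 63.1 and 42.0 CPM in CONT libraries 1, 2 and 4. The INT libraries held 84.6, 44.7, 35.2 and 36.8 CPM. SVX libraries ranged from 41.4 to 61.7 CPM, SVX_VAS libraries from 42.9 to 56.4 CPM and VAS libraries from 30.9 to 76.9 CPM. All 5 groups overlapped, and the logFC against CONT was between 0.07 and 0.19, with 95% intervals of -0.59 to 0.74 in INT, -0.55 to 0.77 in SVX, -0.59 to 0.73 in SVX_VAS and -0.47 to 0.85 in VAS. No FDR was below 0.608 in this fit. With other tools, filters and scalings the VAS logFC reached at most 0.51 and the lowest FDR was 0.0383, without a call. Without VAS 2 and VAS 3 the VAS value turned to -0.30 and was not called either (FDR = 0.466). The related copy C4a, listed as a processed transcript, was between 1.83 and 6.30 CPM in the mated libraries and was not called either, with a logFC of -0.17 in INT (FDR = 0.711). Reads that fit both copies can be counted for either or for neither, so that both levels are uncertain.

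C2 (ENSMUSG00000024371.14, chr17:34862604-34898265, - strand) was at 14.4, 21.7 and 15.4 CPM in CONT libraries 1, 2 and 4. The INT libraries held 17.7, 11.6, 7.70 and 10.01 CPM, and the SVX libraries held 7.09, 8.49, 7.97 and 8.53 CPM. SVX lay below every CONT library, whereas INT 1 lay within the CONT range. The SVX_VAS libraries held 8.89, 16.4, 9.16 and 8.53 CPM, and the VAS libraries held 9.92, 15.3, 9.22 and 9.25 CPM. In each of these sets library 2 reached the CONT range while the other 3 stayed below it. C2 fell in SVX (logFC -1.10 ± 0.28, FDR = 0.00339). The values of -0.55 ± 0.28 in INT (FDR = 0.121), -0.68 ± 0.28 in SVX_VAS (FDR = 0.0525) and -0.65 ± 0.28 in VAS (FDR = 0.0577) were not called. These calls turned on single libraries, on the tool and on the fit. Without INT 1 the INT value was -0.81 (FDR = 0.0205), without SVX_VAS 2 the SVX_VAS value was -0.95 (FDR = 0.00719), and without VAS 2 the VAS value was -0.83 (FDR = 0.0236). Without VAS 2 and VAS 3 together it was -0.84 (FDR = 0.0422). Leaving out a library of another group moved them too. Without INT 1 or INT 3 the SVX_VAS value was -0.68 (FDR = 0.0313) or -0.70 (FDR = 0.0307) and the VAS value -0.65 (FDR = 0.0351) or -0.65 (FDR = 0.0416), and without SVX_VAS 2 the VAS value was -0.65 (FDR = 0.0328). With VAS 2 and VAS 3 left out the SVX_VAS value was -0.68 (FDR = 0.0343). Limma-voom called C2 lower in INT (-0.66, FDR = 0.0394), SVX_VAS (-0.74, FDR = 0.0206) and VAS (-0.69, FDR = 0.0213). DESeq2 called it in SVX_VAS (-0.66, FDR = 0.0448) and VAS (-0.66, FDR = 0.0443), and edgeR with its filterByExpr filter did so as well (-0.72, FDR = 0.0434, and -0.71, FDR = 0.0436). With a replicate block the SVX_VAS value was -0.62 and was called (FDR = 0.0449).

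Cfb, factor B of the alternative pathway (ENSMUSG00000090231.10, chr17:34856374-34862518, - strand), varied the most of the 7 tested genes among the mated libraries, with a 47.3-fold span. CONT libraries 1, 2 and 4 held 11.5, 16.7 and 13.5 CPM. The INT libraries held 12.5, 4.47, 0.799 and 0.630 CPM, a span of 19.8-fold within 1 group. The SVX libraries were close together at 1.01, 0.944, 0.805 and 0.931 CPM. The SVX_VAS libraries held 0.821, 9.93, 0.264 and 0.956 CPM, a span of 37.6-fold, and the VAS libraries held 3.33, 5.93, 2.54 and 0.847 CPM. Every mated library except INT 1 lay below every CONT library. Cfb fell in SVX (logFC -3.91 ± 1.11, FDR = 0.00647), where all 4 libraries were low. It was not called in INT (-1.61 ± 1.002, FDR = 0.204), in SVX_VAS (-2.21 ± 1.01, FDR = 0.0778) or in VAS (-2.13 ± 1.01, FDR = 0.083). Without INT 1 the INT value was -2.82 (FDR = 0.0376), and without SVX_VAS 2 the SVX_VAS value was -4.34 (FDR = 0.00166) and the VAS value -2.13 (FDR = 0.0295). With VAS 2 and VAS 3 left out the VAS value was -2.71 (FDR = 0.0914). Other tools and fits also turned these calls. Limma-voom called Cfb lower in INT (-2.70, FDR = 0.00409), SVX_VAS (-3.40, FDR = 0.00424) and VAS (-2.29, FDR = 0.0032). DESeq2 called it in SVX_VAS (-2.21, FDR = 0.0494), and edgeR did so in VAS with only the groups compared in the fit (-2.11, FDR = 0.0251). With a replicate block the SVX_VAS value was -2.73 and was called (FDR = 0.0255).

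The counts of Cfb and C2 may rest on part of each gene. The annotation holds a further gene, Gm20547, whose exons share 79.5% of the counted bases of Cfb and 42.8% of those of C2 on the same strand, and Gm20547 had 0 counts in every library. This leaves 579 bases of Cfb and 2216 bases of C2 that no other gene on their strand shares. Comparisons of the same gene between groups keep the same bases, but the levels of these genes relative to others depend on whether reads in the shared bases were counted.

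Cfd and C7 were near the limit of detection. Cfd, the protease that activates factor B (ENSMUSG00000061780.5, chr10:79890853-79892656, + strand), had 0, 1 and 0 counts in CONT libraries 1, 2 and 4 and 2, 6, 35 and 0 counts in INT libraries 1 to 4. The 12 other libraries had between 0 and 4 counts. INT 3 alone held 35 of its 61 counts, at 1.996 CPM, and this library also held the highest sum of 6 fat cell markers (4.91 CPM, against 0.451 to 2.61 CPM in the other 18), with the adipokine Adipoq at 0.684 CPM and at 0 in 13 libraries. Cfd is best known as adipsin, a product of fat cells, and the part of fat cells in this value was not tested. C7, of the membrane pore (ENSMUSG00000079105.3, chr15:4988762-5063773, - strand), had 1, 4 and 0 counts in CONT and between 1 and 12 counts in the 16 mated libraries, where its highest level was 0.684 CPM, again in INT 3. With no filter on low counts, edgeR gave C7 a logFC of 2.24 in SVX_VAS (FDR = 0.0232) and Cfd one of 4.75 in INT (FDR = 0.0202), values that depend on the prior count because CONT was at or near 0.

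Cd55, the membrane regulator (ENSMUSG00000026399.12, chr1:130439027-130462744, - strand), fell in all 4 mated sets. CONT libraries 1, 2 and 4 held 229, 239 and 263 CPM. The INT libraries held 161, 111, 114 and 77.4 CPM, and the SVX libraries held 98.1, 108, 98.5 and 122 CPM. Neither set overlapped CONT. The SVX_VAS libraries held 106, 259, 79.6 and 96.4 CPM, so that SVX_VAS 2 alone lay within the CONT range, and the VAS libraries held 97.7, 118, 75.5 and 90.1 CPM, all below it. The fold-change was 0.476 in INT (logFC -1.07 ± 0.32, FDR = 0.0111), 0.438 in SVX (-1.19 ± 0.32, FDR = 0.00448), 0.556 in SVX_VAS (-0.85 ± 0.32, FDR = 0.0338) and 0.391 in VAS (-1.35 ± 0.32, FDR = 0.00193). Without VAS 2 and VAS 3 the VAS value was -1.38 (FDR = 0.0116). The call in SVX_VAS was lost without any 1 of CONT 1, CONT 2, CONT 4, SVX_VAS 1, SVX_VAS 3 or SVX_VAS 4, with logFC between -0.89 and -0.66 and FDR between 0.0589 and 0.0987, with upper quartile scaling (-0.71, FDR = 0.0639), with glmTreat (FDR = 0.245) and with only the groups compared in the fit (-0.82, FDR = 0.103). With glmTreat the INT call was lost as well (FDR = 0.0992).

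RefSeq promoters on GRCm38.p6 were found for 5 of the 9 genes (6 windows), namely C1ra, C1s1, C7, Cfd and Cd55. The 250 bases before the start are shown for C1s1 and Cd55, which were called in opposite directions in all 4 mated sets. The C1ra window is not shown because 216 of its 250 bases lie inside the gene in the annotation used for positions, and the same holds for 38 bases of a further C1s1 window. The windows are chr6:124542360-124542609 for C1s1 and chr1:130462745-130462994 for Cd55, both on the - strand and printed 5′ to 3′, with matches to the motifs searched in capitals:
C1s1: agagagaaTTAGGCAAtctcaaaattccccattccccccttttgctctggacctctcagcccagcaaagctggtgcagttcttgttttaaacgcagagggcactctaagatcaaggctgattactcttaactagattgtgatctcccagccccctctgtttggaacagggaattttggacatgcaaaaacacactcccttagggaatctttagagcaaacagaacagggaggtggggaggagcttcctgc
Cd55: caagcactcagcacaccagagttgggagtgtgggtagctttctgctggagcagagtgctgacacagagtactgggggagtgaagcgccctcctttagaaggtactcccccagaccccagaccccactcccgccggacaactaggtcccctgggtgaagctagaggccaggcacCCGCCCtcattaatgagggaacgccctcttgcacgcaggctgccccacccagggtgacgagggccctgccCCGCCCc

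Motifs were searched on both strands for 5 motifs, with overlaps allowed. The TATA box was searched as TATAAA. The CCAAT box was searched by the letters of its name. The GC box was searched as GGGCGG. The STAT-type motif was TTCNNNGAA and the C/EBP-type motif was TTGCNNAA. The capitals in C1s1 mark 1 C/EBP-type match that begins 242 bases before the start, where 9.56% of all 32851 promoters of this length hold such a match. In Cd55 they mark 2 GC boxes that begin 77 and 7 bases before the start, and 32.7% of all promoters hold this motif. The C1s1 window had a G and C content of 48% and the Cd55 window one of 64%. Among the other members, C7 held a TATA box (12.4% of promoters) and a STAT-type match (7.02%), C1ra and Cfd held no match, and a CCAAT box (33.8%) was found in none of the 5 genes. A match describes letters only and shows no binding.

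Per kilobase of bases not shared on the strand, the order of Cd55, Serping1, C1s1, C4b and C1ra differed between CONT and INT. In CONT the mean levels were 50.2 ± 3.59 CPM per kb for Cd55 (SD, n = 3), 35.1 ± 10.97 for Serping1, 25.4 ± 5.79 for C1s1, 8.37 ± 2.38 for C4b and 4.54 ± 1.40 for C1ra. In INT they were 75.1 ± 7.32 CPM per kb for C1s1 (SD, n = 4), 57.6 ± 5.28 for Serping1, 23.9 ± 7.11 for Cd55, 15.6 ± 2.22 for C1ra and 8.84 ± 4.08 for C4b. Cd55 thus went from the highest level of these genes in CONT to below C1s1 and Serping1 in INT. For Cfb the level in CONT was 24.04 ± 4.53 CPM per unshared kb or 4.93 ± 0.929 CPM per kb of its whole counted length, which shows how far its level depends on the shared bases.

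With edgeR and all libraries, no complement gene, and no gene at all, was called in any comparison between 2 mated sets. The share of genes called was 0% in SVX against INT, 0% in SVX_VAS against INT, 0% in VAS against INT, 0% in SVX against SVX_VAS, 0% in SVX against VAS and 0% in SVX_VAS against VAS, and 0% in the test of any difference among the 4 sets. At an unadjusted p under 0.05, edgeR gave between 240 and 2651 of the 17222 genes in these 6 comparisons and 1213 in the test among the 4 sets. DESeq2 called between 0 and 27 genes in the 6 comparisons and 21 in the test among the sets. Limma-voom called 1663 genes in VAS against INT, 1656 in SVX against VAS, 1807 in SVX_VAS against VAS, 1396 in the test among the sets and 0 in the other 3 comparisons. With sample quality weights, limma-voom called 4734, 4650, 4649 and 9444 genes in these 4 and 0 in the other 3. Of the members, limma-voom called C1s1 in SVX against VAS (logFC 0.71, FDR = 0.0439) and Serping1 in SVX_VAS against VAS (0.68, FDR = 0.0491). With quality weights it called C1s1 and Serping1 in each of the 3 comparisons with VAS, Cfb in SVX against VAS (-1.82, FDR = 0.0423), and C1ra, C1s1 and Serping1 in the test among the sets. The edgeR counts of 0 also changed when a VAS library was left out. Without VAS 1, 576 genes were called in VAS against INT. Without VAS 4, 134 were called in VAS against INT, 684 in SVX against VAS, 575 in SVX_VAS against VAS and 172 in the test among the sets.

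**Figure D3:**
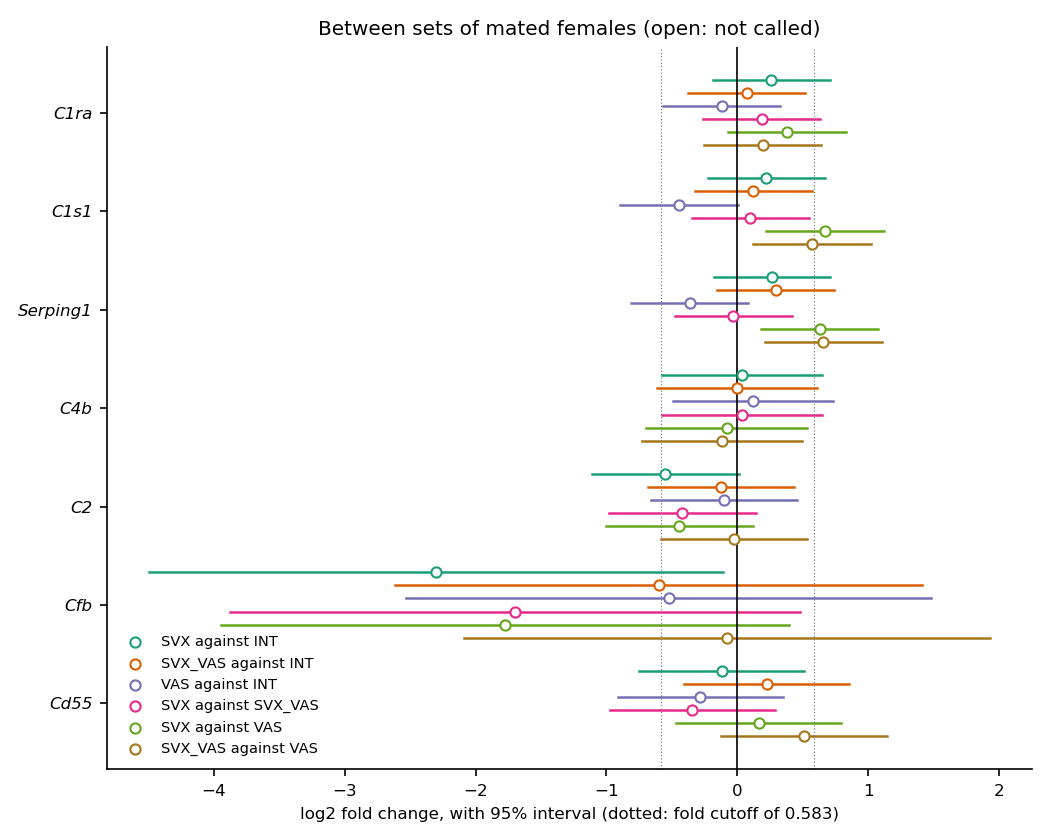
Log2 fold-change of the 7 tested complement genes in each comparison between 2 sets of mated females, with 95% intervals from the edgeR fit (open points: not called, dotted lines: 1.5-fold cutoff). Most intervals cross 0, and the intervals of C1s1 and Serping1 lie above 0 in SVX against VAS and in SVX_VAS against VAS, with adjusted p-values of 0.29 or more.

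The lowest unadjusted p-values of the members among the mated sets were those of C1s1 and Serping1, which were lower in VAS. The order of the means of C1s1 was SVX (274 ± 26.2 CPM, SD, n = 4), SVX_VAS (256 ± 19.1), INT (235 ± 22.9), VAS (172 ± 73.0) and CONT (79.4 ± 18.1). Neighbouring sets in this order overlapped except VAS and CONT, the only neighbours called. SVX was above VAS by a logFC of 0.67 (95% interval 0.22 to 1.12, edgeR adjusted p = 0.304) and SVX_VAS was above VAS by 0.57 (0.12 to 1.02, adjusted p = 0.292). For Serping1 the means were 164 ± 20.0 CPM in SVX_VAS, 161 ± 25.8 in SVX, 134 ± 12.3 in INT, 104 ± 34.8 in VAS and 81.6 ± 25.5 in CONT, and no 2 neighbours in this order differed past the cutoffs. Serping1 was above VAS by 0.63 (0.18 to 1.07, adjusted p = 0.304) in SVX and by 0.66 (0.21 to 1.10, adjusted p = 0.29) in SVX_VAS.

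These differences were smaller without VAS 2 and VAS 3. Then C1s1 was above VAS by 0.30 in SVX and by 0.19 in SVX_VAS, and Serping1 by 0.35 and 0.38, none of them called (FDR between 0.746 and 0.875). When VAS 4 was left out instead, VAS 2 and VAS 3 were 2 of the 3 libraries left in the set and both genes were called, as were 3.98% of all genes in SVX against VAS, 3.34% in SVX_VAS against VAS and 0.779% in VAS against INT. C1s1 was then above VAS by 0.99 in SVX (FDR = 0.00709) and by 0.89 in SVX_VAS (FDR = 0.01), Serping1 by 0.88 in SVX (FDR = 0.0178) and by 0.91 in SVX_VAS (FDR = 0.0164), and C1s1 was lower in VAS than in INT by a logFC of -0.77 (FDR = 0.0392). The summed level of 6 stromal markers was 1541 CPM in VAS 2 and 1630.4 CPM in VAS 3, against 4583 to 7915 CPM in the other 17 libraries, and its part in the lower C1s1 and Serping1 was not tested.

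For the other members, the means of C1ra were 55.6 ± 3.32 CPM in SVX, 48.9 ± 6.94 in SVX_VAS, 46.5 ± 6.63 in INT, 42.8 ± 14.3 in VAS and 13.5 ± 4.17 in CONT, and only VAS and CONT differed among neighbours. Cd55 was highest in CONT (244 ± 17.4 CPM), followed by SVX_VAS (135 ± 83.4), INT (116 ± 34.5), SVX (107 ± 11.2) and VAS (95.2 ± 17.5), and only CONT and SVX_VAS differed among neighbours. C2 (17.2 ± 3.95, 11.8 ± 4.28, 10.9 ± 2.91, 10.7 ± 3.76 and 8.02 ± 0.671 CPM) and Cfb (13.9 ± 2.62, 4.596 ± 5.55, 3.16 ± 2.11, 2.99 ± 4.63 and 0.923 ± 0.0867 CPM) shared the order CONT, INT, VAS, SVX_VAS and SVX, with no neighbours called. The 95% interval of SVX against INT was -1.11 to 0.01 for C2 and -4.49 to -0.11 for Cfb (edgeR adjusted p = 1 for both). The C4b means lay between 47.7 and 54.5 CPM in the 5 groups, with no neighbours called.

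Cfb and C2 were high in the same few mated libraries, and Cd55 was high in 2 of them. In SVX_VAS 2, Cfb was at 9.93, C2 at 16.4 and Cd55 at 259 CPM, the highest of its set for each. INT 1 held the highest values of INT for each of these genes, at 12.5, 17.7 and 161 CPM, and VAS 2 the highest of VAS, at 5.93, 15.3 and 118 CPM. The Cd55 level of VAS 2 was below that of SVX 4 (122 CPM) and below all CONT libraries. C3, the central component that both pathways split and a secretory product of the uterine epithelium, showed a similar pattern in INT and SVX_VAS. In VAS it was highest in VAS 1, not in VAS 2. It was at 5013, 6612 and 5692 CPM in CONT libraries 1, 2 and 4, at 3989, 1445, 129 and 169.7 CPM in INT libraries 1 to 4, and between 145 and 187 CPM in the SVX libraries. In SVX_VAS 2 it was at 4623 CPM, against 183 to 509 CPM in the other libraries of that set, and in the VAS libraries it was at 1012, 429, 210.4 and 124 CPM. C3 was called lower in SVX (logFC -5.11 ± 1.29, FDR = 0.00287) and VAS (-3.70 ± 1.21, FDR = 0.0159) but not in INT (-2.01 ± 1.15, FDR = 0.165) or SVX_VAS (-2.07 ± 1.15, FDR = 0.143).

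The sums of 2 marker lists were higher in every CONT library than in any mated library. Among the mated libraries they followed these genes only in part. The summed level of 6 estrogen-response genes (Ltf, Lcn2, Muc1, Padi1, Sprr2f and Clca1) was between 10222 and 11337 CPM in CONT. It was 7694, 3076, 83.7 and 111 CPM in INT libraries 1 to 4, and 500.3, 87.5, 74.7 and 79.3 CPM in SVX. It was 72.2, 6799, 71.5 and 1150 CPM in SVX_VAS and 2550.1, 864, 431 and 92.8 CPM in VAS. INT 1 and SVX_VAS 2, the mated libraries with the highest Cfb and C2, thus held the highest sums of the mated libraries, whereas VAS 2, high in Cfb and C2, held a sum below that of VAS 1. The sum of 6 epithelial markers was between 3230 and 4419 CPM in CONT, 2267 CPM in INT 1, 1802 CPM in SVX_VAS 2, 1979 CPM in VAS 1 and 552 CPM in VAS 2. It was between 448 and 1858 CPM in the other 12 mated libraries, with INT 2 the highest of these. The part of epithelial content and of estrogen response in the levels of Cfb, C2 and Cd55 was not tested. None of the 6 estrogen-response genes was at 0 in any library, and 1 of the 6 was called lower in INT, 6 in SVX, 1 in SVX_VAS and 1 in VAS, beside 12.7%, 18.5%, 16.5% and 17.3% of all genes. Of 6 proliferation genes, 0, 1, 5 and 1 were called lower in the same sets. Of 6 progesterone-response genes, 5 were called higher and 1 lower in each mated set, beside 20.9% to 23.3% of all genes higher. The part of these 2 programs was not tested either.

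**Figure D4:**
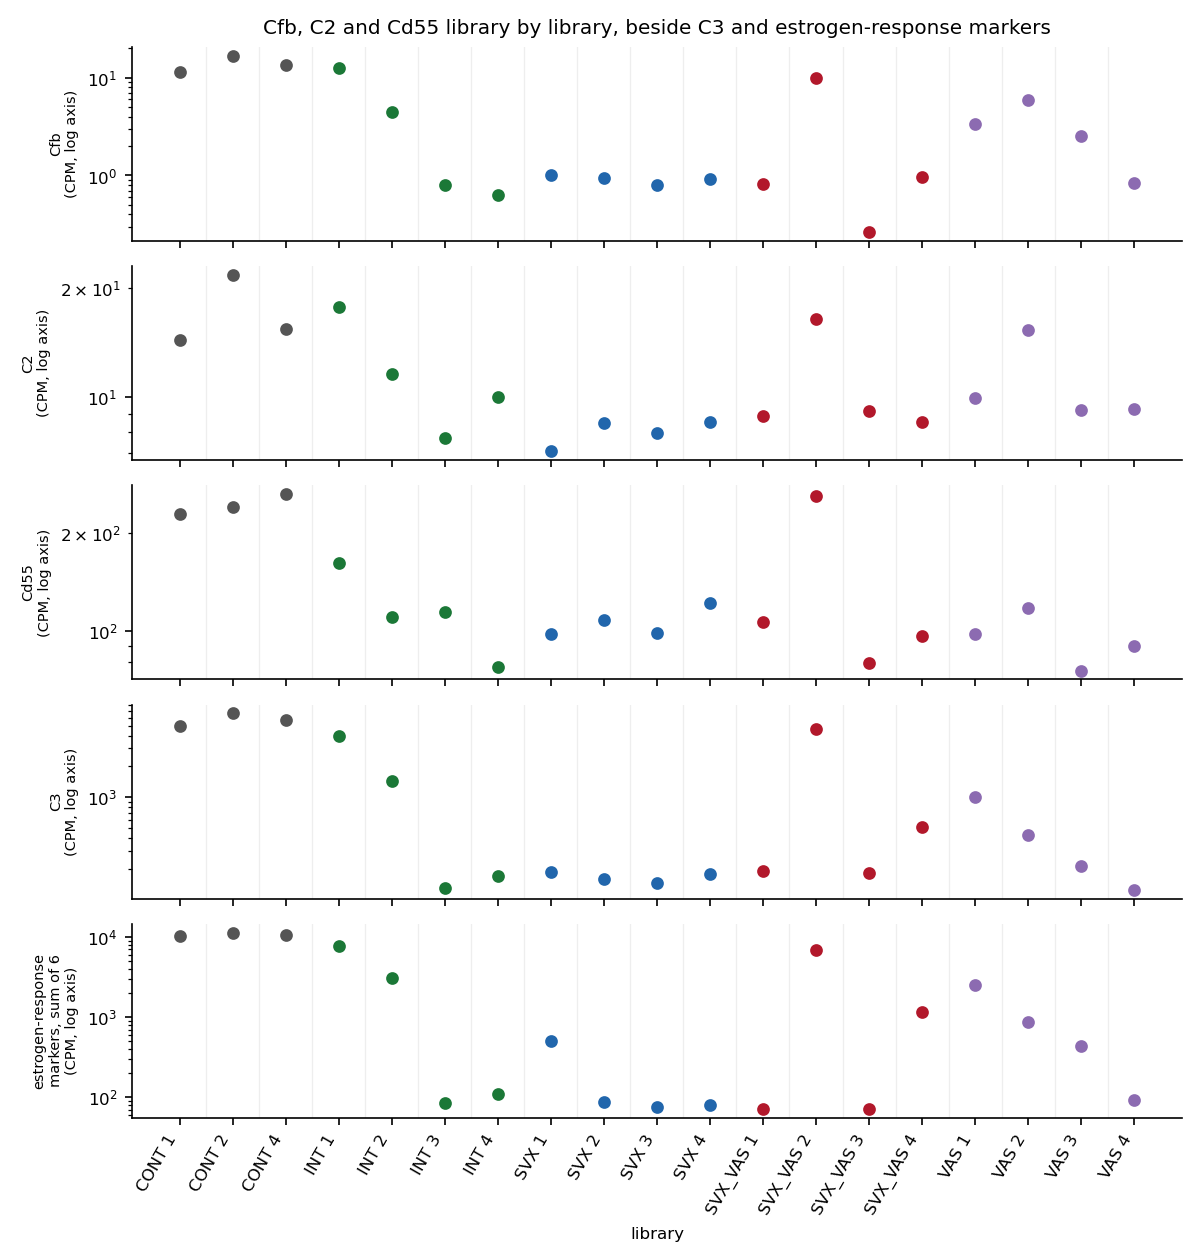
Levels of Cfb, C2 and Cd55 in each of the 19 libraries beside C3 and the summed level of 6 estrogen-response markers (CPM, log axes, points coloured by group). SVX_VAS 2 lies at or near the CONT libraries in all 5 panels, as does INT 1 except for Cd55 (161 CPM, against 229 to 263 CPM in CONT), the 4 SVX libraries are low in Cfb, C2, Cd55 and C3, and VAS 2 is high in Cfb and C2 while its marker sum is below that of VAS 1.

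C1ra and C1s1 moved in the other direction from these epithelial markers, and markers of several other cell types were higher beside them. All 6 endothelial markers were called higher in each mated set, where between 20.9% and 23.3% of all genes were called higher, with a summed level of 128 to 194 CPM in CONT and 406 to 860 CPM in the mated libraries. The stromal sum was between 4583 and 4868 CPM in CONT and between 5492 and 7915 CPM in the mated libraries other than VAS 2 and VAS 3, with 3 of 6 markers called higher in INT, SVX and SVX_VAS and 2 in VAS. The macrophage sum was between 133 and 213 CPM in CONT and between 166 and 267 CPM in the mated libraries, with 3 of 6 markers called higher and 2 lower in INT. The sums of 3 further lists of 6 markers were higher in every mated library than in any CONT library. The T and NK cell sum was between 4.76 and 11.3 CPM in CONT and between 15.3 and 44.0 CPM in the mated libraries, the mesothelial sum was between 80.5 and 109 CPM against 130.0 to 241.6 CPM, and the gland sum was between 53.4 and 72.0 CPM against 84.2 to 554 CPM. The most abundant mesothelial marker in every library was Wt1 (38.3 to 216.8 CPM over the 19 libraries), which endometrial stroma also expresses, and the other 5 mesothelial markers were each at 18.1 CPM or less. In INT, 5 of 5 tested T and NK cell markers, 1 of 6 mesothelial markers and 4 of 6 gland markers were called higher, and 1 gland marker was called lower. The median logFC of the mesothelial markers was below 0 in each mated set (-0.325 in INT, -0.656 in SVX, -0.266 in SVX_VAS and -0.29 in VAS), unlike their sum. In SVX, 1 of the 6 was called higher and 3 lower, beside 23.1% and 18.5% of all genes. The red blood cell sum was between 27.3 and 39.3 CPM in CONT and between 55.3 and 105.4 CPM in the mated libraries other than VAS 2 and VAS 3 (32.8 and 33.8 CPM), with 4 of 5 tested markers called higher in INT. The neutrophil sum was between 2.85 and 9.37 CPM in CONT, 55.8 CPM in VAS 2, 72.6 CPM in VAS 3 and between 8.57 and 23.5 CPM in the other mated libraries, with 1 of 2 tested markers called higher in INT. The sum of 6 liver markers was between 0.379 and 0.897 CPM in CONT and between 8.06 and 16.8 CPM in the mated libraries, with the 2 markers tested called higher in each mated set. It held Apob at up to 10.6 CPM and Ttr at up to 6.91 CPM, while Serpina1a was at 0 in all 19 libraries and Alb reached at most 0.157 CPM. The part of these cell types in the rise of C1ra, C1s1 and Serping1 was not tested.

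Beyond the 9 genes, a list of 47 further complement genes had 28 tested. Of these, 11 were called higher and 6 lower in INT, with a median logFC of 0.21, beside a median of -0.01 over all genes tested, of which 20.9% were called higher and 12.7% lower. In SVX 11 were higher and 9 lower (all genes: 23.1% and 18.5%), in SVX_VAS 11 and 6 (22.2% and 16.5%), and in VAS 12 and 7 (23.3% and 17.3%). In the classical pathway, the C1q chains rose with the proteases. C1qa rose by 0.93 ± 0.17 in INT (FDR = 0.00036), C1qb by 0.91 ± 0.20 (FDR = 0.00124) and C1qc by 1.02 ± 0.21 (FDR = 0.000854), and all 3 were also called higher in SVX, SVX_VAS and VAS. C1q is made largely by macrophages, whose markers are given above. The mean of C1qa was 24.01 ± 6.21 CPM in CONT and 46.0 ± 5.91 CPM in INT.

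In the lectin pathway, where C4 and C2 are cleaved after binding to sugars, 2 of the 3 genes tested of 9 rose in INT and none fell, beside 20.9% of all genes higher and 12.7% lower. The same shares of all genes apply to the other lists in INT. Masp1, a protease of that pathway, showed the largest rise of the list, from 0.854 ± 0.404 to 5.95 ± 1.12 CPM (logFC 2.80 ± 0.42, FDR = 7.27e-05). Of the soluble regulators, 2 of 8 tested rose in INT, Serping1 among them, and 5 fell. Vtn, which encodes vitronectin, rose by 1.22 ± 0.24 (FDR = 0.000557), and Cpn1, a subunit of the carboxypeptidase that inactivates complement peptides, changed by -3.10 ± 1.14 (FDR = 0.0344). The INT libraries of Cpn1 spanned 0.280 to 16.2 CPM (57.8-fold), against 50.6 to 58.0 CPM in CONT. Of the 5 membrane regulators tested, Cd59a, which blocks pore assembly, rose by 0.67 ± 0.16 (FDR = 0.00256) while Cd55 fell. Cr1l, the rodent regulator Crry, was lower by an amount near the fold cutoff (-0.52 ± 0.08 in INT, FDR = 9.98e-05) and passed it in SVX only (-0.60 ± 0.08, FDR = 1.78e-05). Of the 7 receptors tested, 4 rose and 1 fell in INT. Cd93, a surface protein of endothelium and myeloid cells, rose by 2.30 ± 0.26 (FDR = 6.41e-06), and Itgam, a chain of complement receptor 3, changed by -2.39 ± 0.72 (FDR = 0.0122). The INT libraries of Itgam spanned 4.06 to 43.9 CPM (10.8-fold), against 88.0 to 98.6 CPM in CONT. Itgam shares 68.7% of its counted bases with another gene on its strand. Only 1 of 7 terminal pathway genes was tested, C8g, and it was not called.

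**Figure D5:**
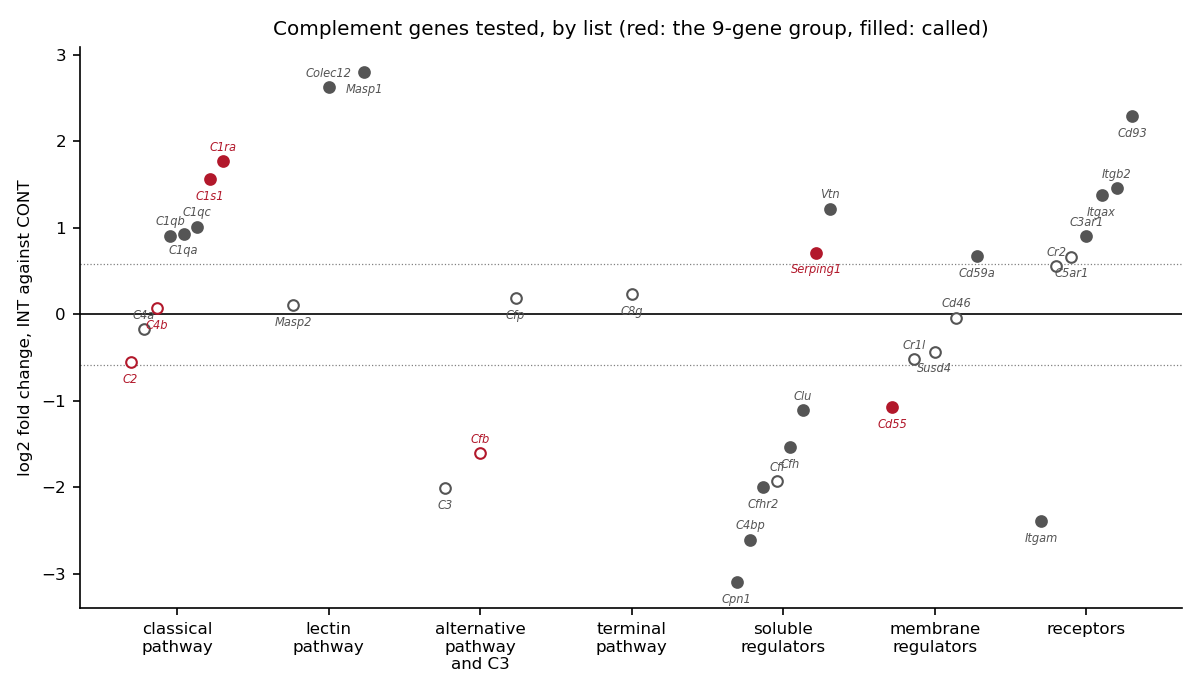
Log2 fold-change in INT against CONT of the 35 complement genes tested, by list (red: members of the 9-gene set, grey: other complement genes, filled: called, open: not called, dotted lines: 1.5-fold cutoff). Classical pathway genes called are all higher, 5 of 8 soluble regulators are lower, and C3 and Cfb are low without being called.

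The genes most like each member were found by Pearson's r of log2 CPM over the 19 libraries, which share group differences and depth, so that r is a description. C1ra was most like Hoxa9 (r = 0.993), Abcg2 (0.992) and Pkd2 (0.99), and C1s1 was most like Zbtb20 (0.99), Sparcl1 (0.989) and Nid1 (0.988). Serping1 was most like Ctla2a (0.949), Gm28154 (0.945) and Spag9 (0.941). Cfb was most like Il1f8 (0.98), Pglyrp1 (0.971) and Fut9 (0.971), C2 most like Birc3 (0.954), BC016579 (0.946) and A530040E14Rik (0.946), and Cd55 most like Chp1 (0.972), Sat1 (0.97) and Fbxl5 (0.959). C4b, which no comparison called, reached lower values, with Ccl8 (0.864), Scai (0.831) and Tmc5 (0.828). None of these 21 genes is in the complement lists.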

How the data were processed

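RNA-seq of 19 endometrial libraries (3 CONT and 4 each of INT, SVX, SVX_VAS and VAS) was analysed. The authors trimmed adapters with AdapterRemoval version 2 from paired-end reads of a stranded total RNA kit, and used STAR for alignment to GRCm38 (mm10) and featureCounts for raw read counts of genes, which they deposited. The versions of STAR and featureCounts and the strand setting are not given in the sources used here. Reads were not analysed.

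Counts were joined to GENCODE symbols (GRCm38), and gene types were those of GENCODE vM21. Positions and exon overlaps came from the exons listed with the deposited counts. A gene was tested if 3 or more libraries reached 3 CPM, with edgeR 4.0.16 in R 4.3.3 (TMM, glmQLFit and glmQLFTest, all 5 groups in 1 fit, no replicate block). Calls needed an FDR no higher than 0.05 together with a 1.5-fold difference. P-values were adjusted over all 17222 genes. Levels are CPM with TMM factors (Malat1: scaled by totals alone), and log2 CPM used a prior count of 2. On simulated data of INT against CONT, the fit found 60 of 100 genes changed by a log2 value of 1 and 86 of 100 changed by 2, with 6 false calls. Only these genes among 17222 were changed in the simulation, whereas 33.6% of genes were called in the data. The simulated counts therefore do not measure how many changes the real comparisons found. Upper quartile scaling moved all logFC against CONT up by 0.127 to 0.199 and scaling by totals alone by 0.187 to 0.408, and values are given relative to TMM. No libraries of a group agreed within sampling noise.

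Alternatives were DESeq2 1.42.0, limma-voom (limma 3.58.1) with and without sample quality weights, DESeq2's size factors, upper quartile scaling, other filters, glmTreat, no fold cutoff, only the groups compared, a replicate block and each library left out. Leaving out VAS 2 and VAS 3 was chosen after seeing the data. The genes named were all 9 members, C3, C1qa, C1qb, C1qc, C4a, Cr1l, the largest called rise and fall of each complement list in INT, the 3 genes most like each member, and any complement gene called between mated sets (none was by edgeR with all libraries). Figures and promoters used Python. The members, the complement lists and the marker lists were chosen with earlier results of these data known, so their counts are descriptions. Promoter sequences are from RefSeq.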

Additional observations from a re-analysis of the deposited data

Results flagged for a closer look

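In 4 of 36 groups of 4 libraries, a single library lay far from the other 3 by Dixon's test at the 95% level. A rate of 1 in 20 would give 1.8, but only for normally distributed levels and independent genes. Over the 16 mated libraries Cfb was correlated with C2 (r = 0.856) and with Cd55 (r = 0.685), so that 1.8 is no measure of chance here. Of the 4 libraries flagged, 3 were the same one, SVX_VAS 2. It held 16.4 CPM of C2, with the nearest library of the set at 9.16 CPM, 9.93 CPM of Cfb, with the nearest at 0.956 CPM, and 259 CPM of Cd55, with the nearest at 106 CPM. In VAS 2, C2 was at 15.3 CPM, with the nearest library at 9.92 CPM. The summed estrogen-response markers of SVX_VAS 2 were at 6799 CPM, against 71.5 to 1150 CPM in the other libraries of that set, and the summed stromal markers of VAS 2 were at 1541 CPM. Their part in these values was not tested.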

How the results depend on the processing

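Of the log2 fold-changes of the members recomputed under other settings, 2109 kept their call or lack of one, 47 became calls, 12 lost the call and none called under either setting turned its direction. Of the counts of members called, 324 stayed within 1.5 times the reported count and 15 did not. In INT against CONT, glmTreat called 2 members in place of 4, and 19.4% of all genes in place of 33.6%. In VAS against CONT, limma-voom, limma-voom with quality weights and leaving out VAS 2 and VAS 3 each called 5 in place of 3, and so did leaving out SVX_VAS 2. These settings called 50.9%, 58.7%, 36.3% and 40.6% of all genes, against 40.6% as reported. Between mated sets, where edgeR called 0, limma-voom called 1 member in SVX against VAS (C1s1) and 1 in SVX_VAS against VAS (Serping1), beside 9.62% and 10.5% of all genes. With quality weights it called 2 in VAS against INT, 3 in SVX against VAS, 2 in SVX_VAS against VAS and 3 in the test among the 4 sets, beside 27.5%, 27%, 27% and 54.8% of all genes. The cause was not tested.

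With each library left out in turn, members called numbered 3 to 6 in INT, 6 to 6 in SVX, 3 to 6 in SVX_VAS and 3 to 5 in VAS against CONT, beside 28.6% to 36.4%, 37.5% to 42.4%, 33.5% to 39.9% and 35.8% to 47.9% of all genes. They numbered 0 to 1 in VAS against INT, 0 to 2 in SVX against VAS, 0 to 2 in SVX_VAS against VAS and 0 to 1 in the test among the 4 sets, each rise coming without VAS 4 (beside 0.779%, 3.98%, 3.34% and 1% of all genes), and 0 to 0 in the other comparisons of mated sets. With a replicate block, 6 members were called in SVX_VAS against CONT, C2 (logFC -0.62, FDR = 0.0449) and Cfb (-2.73, FDR = 0.0255) besides the 4 reported, beside 37.2% of all genes, and the block changed no other call. The numbers do not pair the libraries, since 36 same-numbered pairs had a median correlation of 0.0469 (15 of them over 0.1), 108 others one of -0.0343, and 4 of 19 libraries correlated best with their own number.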
